A study of Macaca fascicularis and Macaca mulatta with 24 samples.

Results

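The genes measured here encode subunits of RNA polymerases I, II and III and the general transcription factors that bring these enzymes to promoters. Members were array probes for genes whose symbol begins with POLR1, POLR2, POLR3, GTF2, GTF3 or TAF followed by a number, in any of the 3 annotation versions that the array files carry. The rule found 66 of 20217 gene probes and 60 genes, each read by its brightest probe. Of the 60 genes, 58 passed the filter on dim probes, among 15887 genes tested in all, and GTF2IRD2 and TAF1B did not pass it. GTF2I and TAF1A were not found by the rule and were not analysed here.

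The samples were cerebral cortex of cynomolgus macaques that had all undergone occlusion of the right middle cerebral artery, a model of ischemic stroke. Animals received placebo or 2.6 mg/kg TatNR2B9c into a vein 5 min later. TatNR2B9c is a peptide that carries a cell-penetrating Tat segment and the tail of the NMDA receptor subunit NR2B, and was designed to separate that receptor from its scaffold protein PSD-95. The 8 groups were left cortex (not ischemic) and right cortex (ischemic), at 1 h and at 6 h after occlusion, from placebo and from TatNR2B9c animals, with 3 arrays in each. The labels number the animals, so right and left arrays with the same number, treatment and time were read as 1 animal. They do not say whether a number stands for the same animal at 1 h and 6 h. Left cortex came from operated animals, so no group is from an animal without a stroke. On each array the sample RNA was labelled with Cy5 and a common macaque reference RNA with Cy3. Every level below is a log2 ratio of sample over reference, and a log2 difference of 1 is a doubling. Each biopsy mixes cell types, so fewer cells of a type and less RNA per cell cannot be told apart.

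RNA polymerase I makes the large ribosomal RNA precursor, polymerase II makes messenger RNA, and polymerase III makes transfer RNA and other short RNAs. The enzymes share several small subunits, and each has its own pair of large catalytic subunits. At polymerase II promoters TFIID, built of the TATA-binding protein and its associated factors (TAFs), marks the start site, TFIIA and TFIIB steady the complex, TFIIF escorts the polymerase, and TFIIE and TFIIH open the DNA. TFIIIC and TFIIIA do the corresponding work at transfer RNA and 5S genes, and the SL1 complex at ribosomal DNA. Every neuron and glial cell uses the core of this machinery, but the members also include a pseudogene and some paralogs.

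The probes were 60 bases long, and 62 of the 66 had a position on rheMac2, the rhesus macaque build named in the array files, spread over 20 chromosomes. The files do not say whether a probe lies in an exon or UTR of the named gene or in a copy of it. The POLR2A probe is shown because it lies in a repeat and has no position. POLR2A is the catalytic subunit of polymerase II and ends in a tail of short tandem repeats. The TAF10, TAF6 and POLR1D probes are shown because these members pass a test or lie at an end of the range of levels, and because each holds AATAAA, the usual signal for ending a transcript. Sequences are those of the deposited array files, 5′ to 3′, with the matched pattern in capitals.
POLR2A: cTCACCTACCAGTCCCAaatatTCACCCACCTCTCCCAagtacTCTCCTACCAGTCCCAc
TAF10: gcctgttttcatAATAAActttattgtgac
TAF6: tcagttcctcagAATAAAagtttggtttgt
POLR1D: ctctgtattattctAATAAAttccctcttg

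The POLR2A probe is whole. Its capitals mark 3 copies of a repeat, each starting 21 bases after the one before. The pattern TCNCCNACCNNTCCCA (N is any base) was read off these copies, so that it matches 3 times here is by construction. It was in 1 of 20217 gene probes (0.00495%), this one, on the printed strand, and in 0 on the other. The other lines show 30 bases of the probes annotated at chr14:65592172-65592228 (plus strand) for TAF10, chr3:47386207-47386266 (minus) for TAF6 and chr4:82333616-82333674 (minus) for POLR1D. AATAAA was in 11 of 66 member probes (16.7%) on the printed strand, against 12.8% of all gene probes, and in 7 (10.6%) on the other strand, against 4.67%. A match describes the letters of a probe and does not show a site in use. The median GC content was 40% for member probes and 41.7% for all gene probes.

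Most members gave a clear sample signal, while the reference signal varied by group. In Cy5, 39 of 58 members were well above background on all 24 arrays, and single arrays showed 43 to 58 of them. In Cy3 the count was 9 to 45 of 58 on placebo 1 h arrays, 57 or 58 on placebo 6 h arrays, 45 to 56 on TatNR2B9c 1 h arrays and 56 to 58 on TatNR2B9c 6 h arrays. A different version of the scanner software was used for each of 3 sets of arrays, namely placebo 1 h, placebo 6 h and TatNR2B9c, so treatment comparisons and placebo time comparisons cannot be told apart from that difference. Of 12 listed neuron markers 11 were measured, and 11 of 11 passed the background limit of the Cy5 channel on each of the 24 arrays. Measured markers had already passed the filter on Cy5 signal, and neuron markers do not separate cortex from other brain regions. The cortex label was thus not tested by them.

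**Figure D1:**
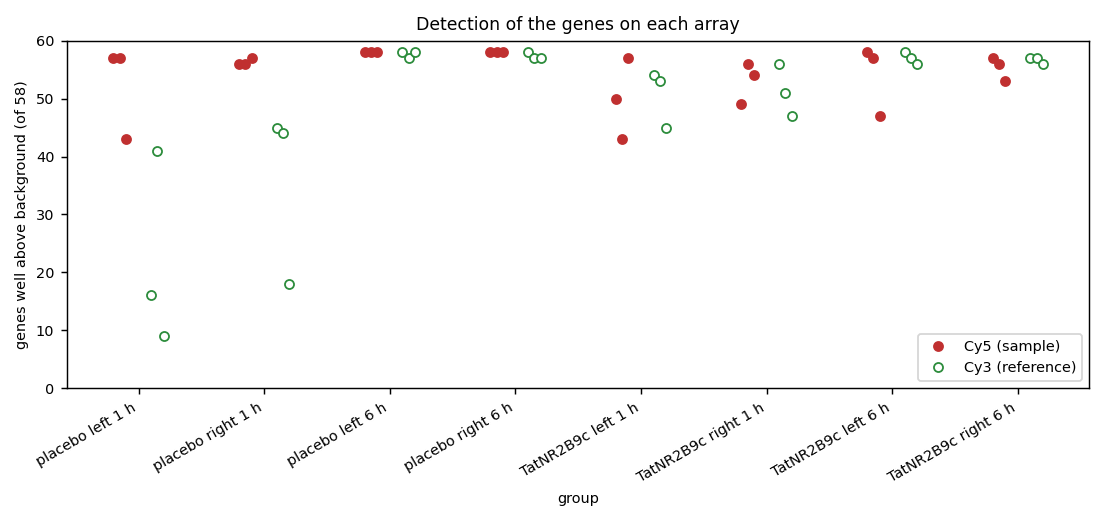
Number of the 58 polymerase and transcription factor genes (vertical axis) marked well above background on each of the 24 arrays, by group (horizontal axis). Filled red points are the sample channel (Cy5) and open green points the reference channel (Cy3), and the placebo 1 h arrays have the lowest reference counts, 9 to 45.

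Averaged over the 24 arrays, most members lay close to the reference level. The mean log2 ratio over 24 arrays was within 0.5 of 0 for 46 of 58 members (79.3%), against 55.2% of all genes, and 33 means were above 0. Only GTF2E2, a TFIIE subunit, was above the reference on all 24 arrays (1.72% of members, 10.3% of all genes), with a mean of 0.55 ± 0.26 (SD over 24 arrays). Below it on all 24 arrays were POLR1D, GTF2F2, POLR2F, GTF2A2 and TAF10 (8.62% of members, 10.4% of all genes). These are ratios to the reference of each probe, so they do not rank the genes by abundance.

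At the top were TAF6, a histone-fold subunit of TFIID, with a mean of 0.76 ± 0.38, the pseudogene GTF2IP1 of the TFII-I family with 0.63 ± 0.31, and POLR3A, the largest subunit of polymerase III, with 0.60 ± 0.50. At the bottom were POLR1D, a subunit shared by polymerases I and III, with −1.37 ± 0.53, GTF2F2, the small subunit of TFIIF, with −1.26 ± 0.64, and POLR2F, a subunit shared by the enzymes, with −0.97 ± 0.33. Neighbours in this order differed by less than their SD over arrays.

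The large catalytic subunits ranged from near 0 to 0.60. POLR1A, the largest subunit of polymerase I, had a mean of 0.13 ± 0.22 and its partner POLR1B of 0.15 ± 0.17. POLR2A had 0.14 ± 0.27, and POLR2B, with which it forms the active site, 0.43 ± 0.28. POLR3B, the partner of POLR3A, had 0.33 ± 0.29. The ranges of mean ± SD of these 6 genes overlap.

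Among the factors of polymerase II, GTF2B (TFIIB) had a mean of −0.34 ± 0.34, GTF2E1 of −0.10 ± 0.21, GTF2F1 of −0.18 ± 0.22, GTF2H1 (a core subunit of TFIIH) of 0.06 ± 0.22 and TAF1 (the largest TFIID subunit) of 0.39 ± 0.28. TAF15, an RNA-binding protein that also associates with TFIID, had 0.29 ± 0.56. For polymerase III, GTF3A (TFIIIA) had 0.19 ± 0.53 and GTF3C1, the largest TFIIIC subunit, 0.57 ± 0.43. GTF2A1, the large TFIIA subunit, was well above background in Cy5 on 8 and in Cy3 on 11 of 24 arrays, so no mean is given for it.

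**Figure D2:**
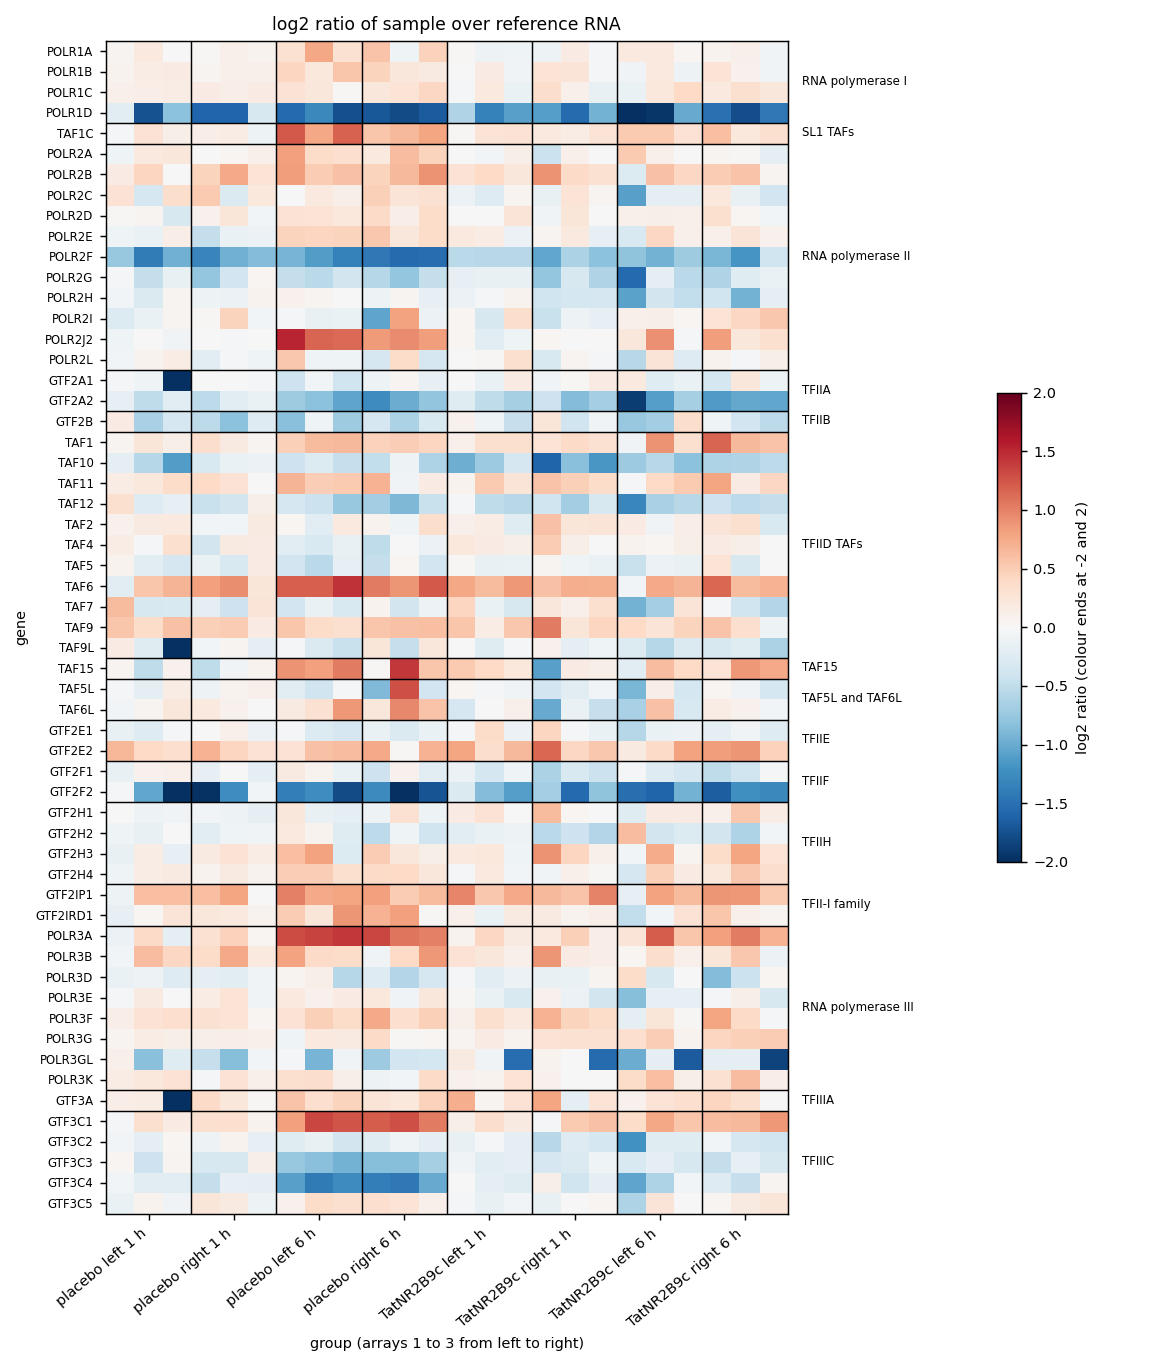
Log2 ratio of sample over reference (colour, from −2 in blue to 2 in red) of 57 genes (rows, grouped by complex) on the 24 arrays (columns, grouped by treatment, side and time). POLR1D, GTF2F2 and POLR2F are below the reference on all 24 arrays.

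One array stood apart for several members. On placebo left 1 h array 3, GTF2F2 was at −2.84, TAF9L (the TAF9 paralog) at −2.46, GTF2A1 at −2.37 and GTF3A at −2.06. On arrays 1 and 2 of that group TAF9L was at 0.16 and −0.24, GTF2A1 at −0.04 and −0.09, and GTF3A at 0.14 and 0.15. That array had 9 members above background in Cy3, the fewest of the 24, and 43 in Cy5, as did array 2 of TatNR2B9c left 1 h.

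POLR3GL, a subunit of polymerase III and paralog of POLR3G, was chosen here after its values were seen. Its log2 ratio on array 3 of the TatNR2B9c groups was −1.52 (left 1 h), −1.53 (right 1 h), −1.66 (left 6 h) and −1.85 (right 6 h). On the other 20 arrays it lay between −1.0 and 0.18. The 4 low arrays shared slide 9, which held no other array, and the labels do not say whether the 1 h and 6 h arrays among them come from the same animal.

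The first comparison asks how the ischemic right cortex differed from the non-ischemic left. No member passed the test (adjusted p under 0.05 over all genes, limma with Benjamini-Hochberg adjustment) in placebo animals at 1 h or 6 h or in TatNR2B9c animals at 1 h or 6 h, and neither did any of the 15887 genes (0%). At unadjusted p under 0.05 there were 1 member in placebo 1 h (1.33% of all genes), 1 in placebo 6 h (3.86%), 2 in TatNR2B9c 1 h (4.51%) and 2 in TatNR2B9c 6 h (3.24%). The median difference of the 58 members was 0.01 in placebo 1 h, −0.05 in placebo 6 h, 0.01 in TatNR2B9c 1 h and 0.15 in TatNR2B9c 6 h, against 0.01, −0.05, −0.03 and 0.07 over all genes. The first 3 of these medians took both signs across the alternatives, from −0.26 to 0.05, from −0.07 to 0.06 and from −0.06 to 0.22, and the last ranged from 0.01 to 0.29.

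In placebo animals at 1 h the right-left differences were 0.80 ± 0.40 (SE) for GTF3A, 0.79 ± 0.41 for TAF9L and 0.44 ± 0.22 for TAF10, with an adjusted p of 1 in limma for each. TAF10 is shared by TFIID and the SAGA coactivator. GTF3A and TAF9L were low on array 3 of the left group, described above, and without it GTF3A was at 0.06 and TAF9L at −0.02. GTF2A1 was not well above background in either channel on any right array, so no difference is given for it. The 3 right arrays lay apart from the 3 left ones for 1 of 58 members (1.72%), GTF2A1, whose right ratios are not measured levels, against 3.67% of all genes.

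In placebo animals at 6 h the largest differences were negative. In this group no animal had its right and left arrays on the same slide. Left arrays 1 and 3 were scanned on an earlier day than the right arrays. Side therefore cannot be fully told apart from slide and scan day here. TAF1C, the SL1 subunit that loads polymerase I, was at 1.23, 0.78 and 1.18 on the left and at 0.56, 0.64 and 0.78 on the right. Its difference was −0.40 ± 0.14 (SE). TAF1C was well above background in Cy5 on 16 and in Cy3 on 4 of the 24 arrays. POLR2J2, a copy of the polymerase II subunit POLR2J, was at 1.53, 1.17 and 1.13 on the left and 0.85, 0.95 and 0.84 on the right (−0.40 ± 0.19). The POLR2J2 arrays did not overlap, while the lowest left and the highest right array of TAF1C were both at 0.78. The other kept probe of POLR2J2 gave a difference of 0.04, and the probe used here gave 0.029 in Cy5 alone. POLR2F followed with −0.36 ± 0.19 and GTF2H2, a TFIIH subunit, with −0.34 ± 0.20. In all, 3 of 58 members (5.17%) had sides that did not overlap, against 12.8% of all genes. The adjusted p was 1 in limma for each of these 4 genes.

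In TatNR2B9c animals at 1 h TAF15 had the largest difference, −0.65 ± 0.34, with −1.09, 0.16 and 0.12 on the right and 0.52, 0.41 and 0.22 on the left. TAF10 was at −1.60, −0.83 and −1.16 on the right and −0.97, −0.73 and −0.34 on the left, a difference of −0.52 ± 0.22. TAF6L, a SAGA subunit, followed with −0.46 ± 0.27 and POLR2G, a stalk subunit of polymerase II, with −0.41 ± 0.26. The 2 sides did not overlap for TAF15 or POLR2G, and for 9 of 58 members (15.5%) in all, against 19.9% of all genes. The adjusted p in limma was 0.927 for each.

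In TatNR2B9c animals at 6 h the differences were −0.44 ± 0.21 for POLR3D, a subunit of polymerase III, 0.43 ± 0.26 for POLR2G, 0.41 ± 0.18 for TAF1 and 0.38 ± 0.24 for POLR2C, an assembly subunit of polymerase II, all with an adjusted p of 0.939 in limma. Groups did not overlap for 2 members (3.45%), against 2.32% of all genes. In animal 1 of this group 47 of 58 members were higher on the right, with a median of 0.52 against 0.22 over all genes, while the medians of the other 11 animals of the study lay between −0.12 and 0.07. Its left array had a member median of −0.24, the lowest of the 24.

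Over the 12 animals together, no member and none of all genes (0%) passed by limma, and 3 members had unadjusted p under 0.05 (3.8% of all genes). GTF2H2 had the largest pooled difference, −0.27 ± 0.10 (SE, unadjusted p = 0.0152, adjusted p = 0.887 in limma), and was lower on the right in 10 of 12 animals. The differences ran from −0.99 to 0.21. GTF2F1 was at −0.19, lower in 9 of 12, and POLR3F, a polymerase III subunit, at 0.19, higher in 8 of 12. The 95% confidence interval of the pooled difference lay within 0.5 of 0 for 53 of 58 members and within 1 for 58. Differences of more than a doubling between the sides, averaged over the groups, were thus outside the interval of each member.

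Slides that held right and left arrays of the same animals' group gave member medians of −0.07 to 0.03 on slides 1, 2, 5, 7, 8 and 9. On slide 10, which held TatNR2B9c animals 1 and 2 at 6 h, the median was 0.23. The difference of the right-left difference between treatments was also tested. No member and none of all genes (0%) passed by limma at either time, with 1 member at unadjusted p under 0.05 at 1 h (1.75% of all genes) and 0 at 6 h (4.25%). The member at 1 h was TAF10, with right-left differences of 0.44 in placebo and −0.52 in TatNR2B9c animals and a difference between them of −0.95 ± 0.31 (SE, unadjusted p = 0.0060, adjusted p of 1 in limma).

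**Figure D3:**
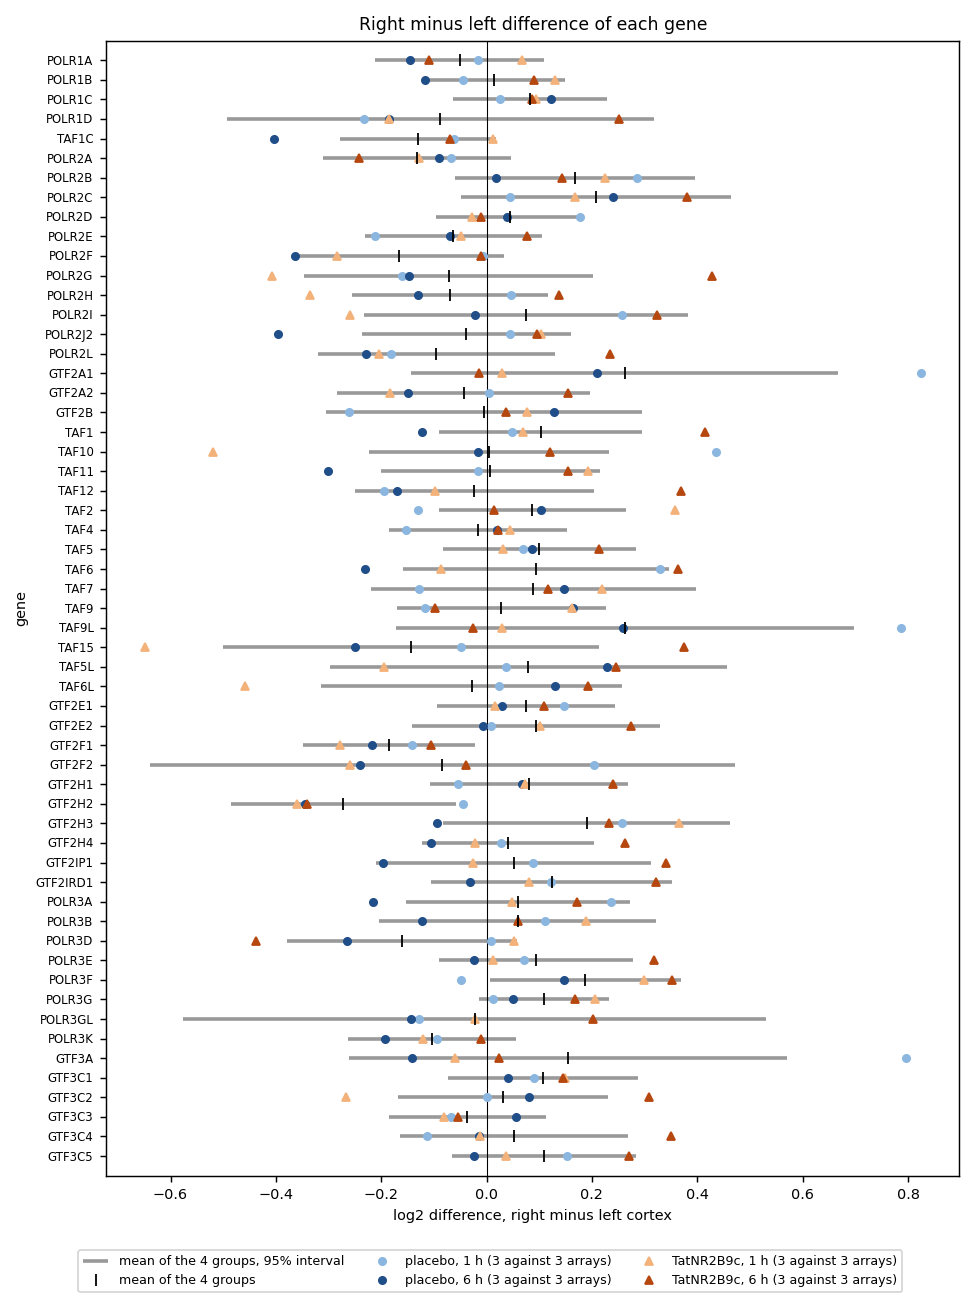
Right minus left log2 difference (horizontal axis) of each of 57 genes (vertical axis), with a point for each of the 4 groups of animals and the pooled mean with its 95% confidence interval. GTF2H2 has the most negative pooled value, −0.27, and the interval lies within 0.5 of 0 for 52 of the 57 genes drawn.

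The second comparison asks how TatNR2B9c animals differed from placebo animals on the same side at the same time. On the right at 1 h, 1 of 58 members (1.72%) passed, against 1.57% of all genes (1.21% lower). TAF10 was at −0.31, −0.14 and −0.11 in placebo and at −1.60, −0.83 and −1.16 in TatNR2B9c animals. The groups did not overlap, and the difference was −1.01 ± 0.22 (SE, adjusted p = 0.0252 in limma), a 2.02-fold lower ratio. In Cy5 alone its difference was 0.26 (adjusted p = 0.457 in limma), and the reference channel was 1.14 higher (adjusted p = 0.00134). With 1 of the 6 arrays left out in turn, it passed in 1 of 6 repeats, that without TatNR2B9c right 1 h array 2, with differences from −1.19 to −0.81.

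The next members on the right at 1 h were TAF6L (−0.63 ± 0.27), GTF2B (0.46 ± 0.29) and GTF2H2 (−0.39 ± 0.20), with adjusted p-values of 0.305, 0.505 and 0.413 in limma. GTF2H2 was at −0.23, −0.09 and −0.07 in placebo and −0.54, −0.42 and −0.59 in TatNR2B9c animals. These groups did not overlap, which held for 19% of members and 26.2% of all genes.

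On the right at 6 h, 1 member (1.72%) passed, against 4.22% of all genes (2.63% higher). GTF3C4, a TFIIIC subunit, was at −1.38, −1.42 and −1.0 in placebo and at −0.26, −0.46 and 0.05 in TatNR2B9c animals. The groups did not overlap, and the difference was 1.04 ± 0.21 (SE, adjusted p = 0.00846 in limma). In Cy5 alone the difference was −0.71 (adjusted p = 0.233 in limma) and in Cy3 −1.03 (adjusted p = 0.00329). No member passed without TatNR2B9c right 6 h array 3, and 2 did without array 1 or 2 of that group or array 2 of the placebo group. Groups did not overlap for 19% of members, against 30.2% of all genes. POLR2F (0.66 ± 0.19, adjusted p = 0.0565) and POLR2I (0.53 ± 0.29, 0.314), a small subunit of polymerase II, had further large differences and did not pass by limma.

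On the left at 1 h, 0 of 58 members passed by limma, against 0.888% of all genes, and 3 members had unadjusted p under 0.05 (10.3% of all genes). The differences of GTF3A (0.95 ± 0.40), TAF9L (0.76 ± 0.41) and GTF2F2 (0.55 ± 0.53), which were low on placebo left 1 h array 3, rested on that array. Without it GTF3A was at 0.21, TAF9L at −0.05 and GTF2F2 at −0.22. GTF2A1 was not well above background in either channel on the TatNR2B9c arrays of this comparison, so no difference is given for it. Groups did not overlap for 3.45% of members, against 17.3% of all genes.

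On the left at 6 h members differed more often, as did the genes of the array as a whole. Of 58 members 12 (20.7%) passed, 2 higher and 10 lower in TatNR2B9c animals, against 24.2% of all genes (10.6% higher and 13.6% lower). Of the members 14 were above 0, against 44.1% of all genes, and their median was −0.29 against −0.07. Groups did not overlap for 37.9% of members, against 33.5% of all genes. The member median was also below 0 in each of the other scalings tried, from −0.89 under median centring to −0.14 with the arrays scaled to equal spread. Median centring also moved the median of all genes in this comparison further below 0, as given in the closing section. With the repeats that each left out 1 array included, the member median ranged from −0.89 to −0.12. TatNR2B9c left 6 h array 1 had a member median of −0.24, and arrays 2 and 3 had 0.13 and 0.02. In Cy5, 97.7% of gene probes were above background on array 1, against 76.9% and 53.0% on arrays 2 and 3. The share of members that passed was near that of all genes. No member passed with the processed signals, the series matrix, the arrays scaled to equal spread or a fit of these 2 groups alone.

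The lower members held subunits of each polymerase. POLR2J2 was at 1.53, 1.17 and 1.13 in placebo and 0.22, 0.92 and −0.05 in TatNR2B9c animals, a difference of −0.91 ± 0.19 (SE, adjusted p = 0.00293 in limma), while its other kept probe gave −0.08. POLR2H, shared by the polymerases, was at 0.09, 0.06 and 0.01 in placebo and −1.07, −0.36 and −0.50 in TatNR2B9c animals (−0.70 ± 0.18, adjusted p = 0.00918 in limma). POLR3A was at 1.30, 1.35 and 1.41 in placebo and 0.26, 1.21 and 0.56 in TatNR2B9c animals (−0.68 ± 0.20, adjusted p = 0.0222 in limma). In these members the placebo arrays lay close together and above the TatNR2B9c arrays, whose spread was wider.

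POLR3E (−0.55 ± 0.18), a subunit of polymerase III, and POLR1B (−0.39) were also lower, with adjusted p-values of 0.0313 and 0.0322 in limma. Among the factors TAF6 (−0.82 ± 0.24), GTF2IRD1 of the TFII-I family (−0.62 ± 0.22), TAF1C (−0.62 ± 0.14) and GTF3C1 (−0.58 ± 0.17) were lower. Their adjusted p-values in limma were 0.0201, 0.0449, 0.00475 and 0.0216. The Cy3 signal of TAF1C was well above background on 4 of the 24 arrays.

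The 2 higher members were subunits of TFIIIC. GTF3C4 was at −1.09, −1.42 and −1.25 in placebo and −1.06, −0.61 and −0.05 in TatNR2B9c animals (0.68 ± 0.21, adjusted p = 0.0240 in limma). GTF3C3 was at −0.75, −0.83 and −0.95 in placebo and −0.31, −0.18 and −0.31 in TatNR2B9c animals (0.58 ± 0.14, adjusted p = 0.0079 in limma). The groups did not overlap for GTF3C3 or GTF3C4, whose lowest TatNR2B9c array came close to placebo. GTF3C1, the other TFIIIC subunit that passed, was lower, so members of the complex passed in both directions. The SD of the log2 ratios of all gene probes was 1.38 to 1.54 on placebo and 0.90 to 1.29 on TatNR2B9c left 6 h arrays. The part of this spread in the differences was not tested. In Cy5 alone GTF3C4 was at −0.93 and GTF3C3 at 0.45.

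The counts depended on single arrays. With TatNR2B9c left 6 h array 1 left out 4 members passed, and with placebo left 6 h array 3 left out 5 did. TAF1C, GTF3C3 and POLR2J2 passed in each of the 6 repeats, and GTF2IRD1, POLR3A, GTF3C1, POLR3E and POLR1B in 2. Blood cell markers differed between the same groups. Their summed Cy5 signal was 6043 to 21293 on placebo left 6 h arrays and 85533 to 165415 on TatNR2B9c left 6 h arrays, with 2 of 6 markers higher and at least 5 of 6 above background on each array. Of 8 oligodendrocyte markers 3 were lower, with sums of 32163 to 51562 in placebo and 12048 to 34796 in TatNR2B9c animals. Of 5 markers of meninges and choroid plexus 2 were higher (median 1.08, sums of 6877 to 14895 against 8060 to 54606), of 11 neuron markers 1 was lower (median −0.63, 137813 to 147299 against 93989 to 146657), and of 7 astrocyte and 8 endothelial and mural markers 1 each was higher, while none of 8 microglia and macrophage markers passed. On the right at 6 h, 2 blood cell, 2 meninges and choroid plexus and 1 astrocyte marker were higher and no marker was lower. The part of these cell types in the member differences was not tested.

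The third comparison asks how cortex sampled at 6 h differed from cortex sampled at 1 h on the same side and under the same treatment. In right cortex of placebo animals 9 of 58 members (15.5%) passed, 6 higher and 3 lower at 6 h, against 40.8% of all genes (21.5% higher and 19.4% lower). In left cortex 14 (24.1%) passed, 11 higher and 3 lower, against 54.1% of all genes (30.8% higher and 23.3% lower). The member medians were 0.05 on the right and 0.10 on the left, against 0.04 and 0.11 over all genes, and turned to −1.72 and −1.84 under median centring, to −0.50 and −0.45 in the processed signals and to −0.07 and −0.13 in Cy5 alone. Median centring moved the median of all genes too, to −0.79 and −0.88, and the processed signals to −0.36 and −0.34.

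TFIIIC again held members of both directions. The SD of the log2 ratios of all gene probes was 0.35 to 1.01 on placebo 1 h arrays and 1.38 to 1.54 on placebo 6 h arrays. At 6 h GTF3C1 was above the reference and GTF3C3 and GTF3C4 below it. The part of the wider spread in their differences was not tested, and counts with ratios scaled to equal spread are in the closing section. GTF3C1 was at 0.33, 0.33 and 0.07 at 1 h and 1.21, 1.29 and 1.04 at 6 h on the right (0.94 ± 0.17, adjusted p = 0.000373 in limma), and at −0.03, 0.33 and 0.16 against 0.82, 1.34 and 1.25 on the left (0.99 ± 0.17, adjusted p = 0.000134). GTF3C4 was at −0.48, −0.17 and −0.19 at 1 h and −1.38, −1.42 and −1.0 at 6 h on the right (−0.99 ± 0.21, adjusted p = 0.00108 in limma), and at −0.05, −0.22 and −0.23 against −1.09, −1.42 and −1.25 on the left (−1.09 ± 0.21, adjusted p = 0.000295). GTF3C3 was lower by −0.62 ± 0.14 on the right and −0.74 ± 0.14 on the left (adjusted p = 0.00227 and 0.000323 in limma). For these TFIIIC genes the 1 h and 6 h arrays did not overlap on either side, which held for 37.9% of members on the right and 41.4% on the left, against 59.7% and 63.9% of all genes. The probes lie at chr20:25910851-25910910 (GTF3C1, minus strand), chr15:5950981-5951040 (GTF3C4, minus) and chr12:60392861-60392920 (GTF3C3, minus) on rheMac2.

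POLR3A, the largest polymerase III subunit, was higher at 6 h on both sides in the loess-normalized ratio. It was at 0.30, 0.47 and 0.03 at 1 h and 1.33, 1.08 and 1.01 at 6 h on the right (0.87 ± 0.20), and at −0.11, 0.38 and −0.18 against 1.30, 1.35 and 1.41 on the left (1.33 ± 0.20). On the right its difference turned to −0.54 in both the series matrix and the processed signals. It was 0.09 in Cy5 and 0.02 in Cy3 alone. POLR3A was not well above background in Cy3 on any placebo 1 h array, where its ratios therefore rest on a reference signal near background.

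POLR2J2 and POLR2E were the polymerase II members higher on both sides. POLR2J2 was at 0.01, −0.02 and −0.01 at 1 h and 0.85, 0.95 and 0.84 at 6 h on the right (0.89 ± 0.19), and at −0.08, −0.01 and −0.07 against 1.53, 1.17 and 1.13 on the left (1.33 ± 0.19). Among the 6 placebo 1 h arrays its Cy5 signal was well above background on 3 and its Cy3 signal on 0, so its 1 h ratios near 0 are mostly not measured levels. POLR2E, shared by the polymerases, was at −0.47, −0.13 and −0.11 against 0.53, 0.22 and 0.36 on the right (0.61 ± 0.16), and at −0.09, −0.13 and 0.13 against 0.45, 0.43 and 0.44 on the left (0.47 ± 0.16). Its probe was well above background in both channels on all 24 arrays. The annotated position is chr14:108554185-108554244 (plus strand), and whether it lies in the named gene or in a copy is not given.

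TAF1C was higher by 0.60 ± 0.14 on the right and 0.94 ± 0.14 on the left, with Cy3 above background on none of the 6 arrays at 1 h. GTF2A2, the small TFIIA subunit, was at −0.52, −0.22 and −0.14 at 1 h and −1.26, −0.99 and −0.79 at 6 h on the right (−0.72 ± 0.23, adjusted p = 0.0173 in limma), and was lower by −0.57 ± 0.23 on the left (adjusted p = 0.0430). Members that passed on the left alone were GTF3A (1.04 ± 0.40), TAF15 (1.04 ± 0.34), TAF6 (0.94 ± 0.24), POLR1A (0.37) and the polymerase II stalk subunit POLR2D (0.34). Whether their time difference was larger on the left was not tested. The difference of GTF3A was 0.30 without placebo left 1 h array 3 and up to 1.41 without another array, and it passed in 2 of 6 such repeats.

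**Figure D4:**
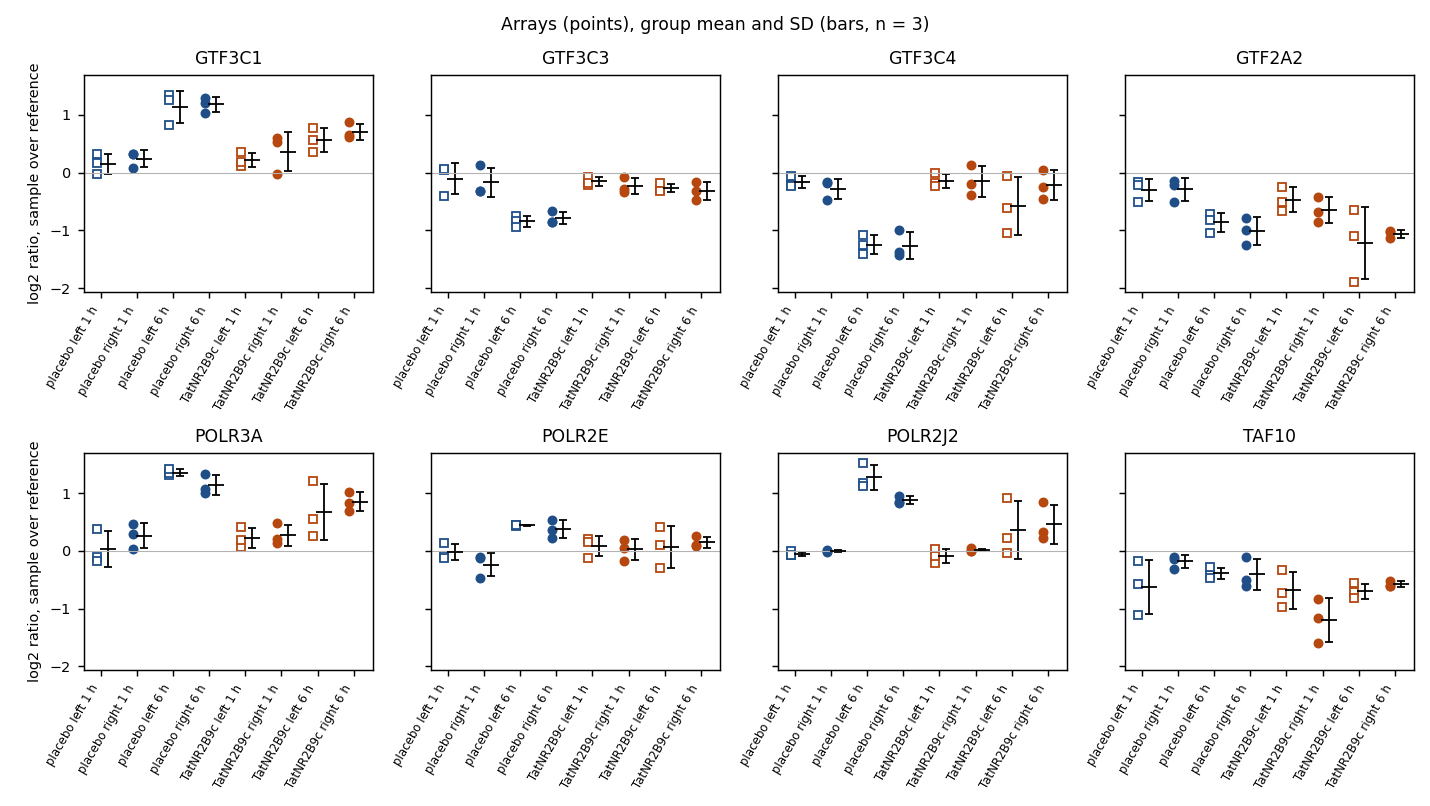
Log2 ratio of sample over reference (vertical axis) of 8 genes that passed a test (panels), in the 8 groups (horizontal axis), with 1 point per array and bars for mean ± SD of 3 arrays. Open squares are left and filled circles right cortex, blue is placebo and orange TatNR2B9c, and the placebo 6 h arrays of GTF3C1, GTF3C4, POLR3A, POLR2E and POLR2J2 lie apart from the placebo 1 h arrays.

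In TatNR2B9c animals 0 members and 0 of all genes (0%) passed on either side by limma. At unadjusted p under 0.05 there were 9 members on the right (19.3% of all genes) and 8 on the left (16.1%). Groups did not overlap for 25.9% of members on the right and 13.8% on the left, against 27.9% and 17.6% of all genes. The largest differences on the right were those of TAF15 (0.90 ± 0.34), POLR2I (0.64 ± 0.29), TAF10 (0.62 ± 0.22) and TAF6L (0.60 ± 0.27), with adjusted p-values of 0.165, 0.239, 0.141 and 0.237 in limma. On the left they were those of POLR1D (−0.81 ± 0.39), GTF2A2 (−0.75 ± 0.23), POLR2H (−0.62 ± 0.18) and POLR2G (−0.60 ± 0.26), with adjusted p-values of 0.311, 0.184, 0.176 and 0.279. Slide 9 held a 1 h and a 6 h array of each side, and on it the median time difference of the members was 0.00 on either side, with 29 of 58 above 0 on the right and 32 on the left. POLR3A was also higher at 6 h in TatNR2B9c animals, at 0.83, 1.02 and 0.69 against 0.20, 0.48 and 0.13 on the right, but did not pass (0.58 ± 0.20, adjusted p = 0.141 in limma).

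Each ratio joins a sample and a reference signal, so the members that passed were also read in each channel alone. In right cortex of placebo animals 8 of the 9 that passed over time had the same sign in Cy5 alone and 6 of these passed there. Among those, the differences in Cy5 were 1.93 for GTF3C1, 1.19 for POLR2E, 0.68 for POLR2J2, −1.56 for GTF2A2 and −0.88 for GTF3C3. In left cortex 11 of 14 had the same sign and 3 passed, GTF3C1 (1.36), POLR2E (1.05) and GTF3C3 (−0.68). GTF3C1, POLR2E and GTF3C3 were thus the members whose time difference in placebo animals passed on both sides in the ratio and in Cy5 alone. In Cy3 alone GTF3C1 was also higher, by 1.19 on the right and 0.68 on the left. POLR2E was higher there by 0.67 and 0.83, and GTF2A2 was at −0.76 on the right. Each of these Cy3 differences passed by limma, while those of GTF3C3 (0.14 and 0.37) did not. Median centring lowered the median of all genes, as given above. It turned the ratio differences of GTF3C1 to −0.020 on the right and −0.42 on the left, and those of POLR2E to −2.55 and −3.19. The right difference of GTF3C1 was also −0.22 in both the processed signals and the series matrix.

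For others the channels disagreed with the ratio. POLR3A, 1.33 higher in the ratio on the left, was at 0.10 in Cy5 and −0.51 in Cy3. GTF3C4, at −0.99 in the ratio on the right, was at −0.04 in Cy5 and 0.40 in Cy3. On the left, with −1.09 in the ratio, it was at −0.73 in Cy5 and 0.27 in Cy3. None of these single-channel differences of GTF3C4 passed by limma. TAF6 on the left was at −0.84 in Cy5 and −1.31 in Cy3, and TAF1C at −0.50 in Cy5 on either side, so the sign in Cy5 was opposite to that of the ratio. In the comparison of treatments on the left at 6 h, 9 of 12 had the same sign in Cy5 and 1 passed there, POLR2H at −0.89.

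The same reference RNA was on all arrays, so a difference in Cy3 is one between arrays and not between cortices. In Cy3 alone 16 members passed for TatNR2B9c against placebo on the right at 1 h (27.6%, against 21.2% of all genes) and 14 on the left at 1 h (24.1%, against 27.7%). At 6 h 5 passed on each side (8.62%, against 2.52% on the right and 2.45% on the left). Over time in placebo animals 12 passed on the right (20.7%, against 23.4%) and 13 on the left (22.4%, against 29.6%). None passed between the sides or over time in TatNR2B9c animals in Cy3 or Cy5, where 0% of all genes passed by limma.

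**Figure D5:**
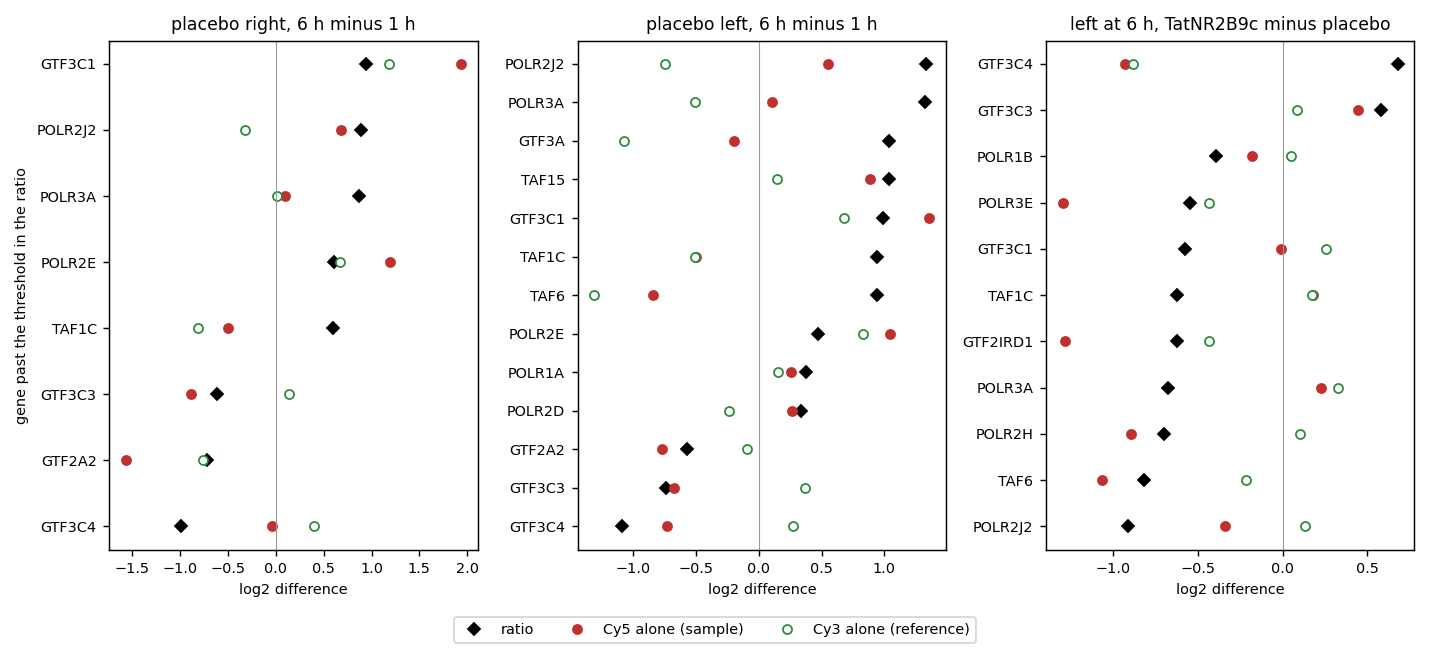
Log2 difference (horizontal axis) of genes that passed in each of 3 comparisons (panels, genes on the vertical axis), in the ratio (black diamonds), in Cy5 alone (filled red points) and in Cy3 alone (open green points). GTF3C1 and POLR2E lie to the right of 0 in Cy5 and in Cy3 in both placebo panels. TAF1C and TAF6 have a Cy5 difference opposite in sign to the ratio over time.

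For 6 members a further probe was kept. The probes of TAF6 and of TAF1C gave like answers over time on the left in placebo animals, 0.94 and 0.95 for TAF6 and 0.94 and 0.88 for TAF1C, whose probes have the same sequence. Those of POLR2J2 did not, with 1.33 and −0.02 on the left and 0.89 and 0.12 on the right, and across 24 arrays they correlated at r = 0.25. The probes of GTF2IP1, which have the same sequence, gave 0.48 and 1.15 on the left. The probes of TAF9, a histone-fold TAF, had means of 0.44 and −0.06 over the arrays. POLR2J2, GTF2IP1 and GTF2IRD2 belong to families of near-identical copies, so their signal may come from more than 1 gene and is uncertain.

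The other genes of the transcription machinery were counted as a list of 75 symbols, of which 65 were measured. They include the TATA-binding protein, the Mediator subunits (MED genes), elongation factors and the SNAPc complex of small nuclear RNA genes. None passed between the sides. Over time in placebo animals 18 were higher and 8 lower on the right (40.8% of all genes in either direction) and 22 higher and 9 lower on the left (54.1%). The elongation factor TCEA2 was 1.78 higher on the right and 2.37 on the left, CCNT1, the cyclin partner of the elongation kinase P-TEFb, 1.09 and 1.32, and SNAPC2 1.1 and 1.24. TCEA3 and ELL3, further elongation factors, were lower, at −2.42 and −2.26 on the right and −2.45 and −2.58 on the left. All differences of these listed genes are from the loess-normalized ratio alone. Their single channels and other settings are not given here.

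On the left at 6 h, 2 of these genes were higher and 11 lower in TatNR2B9c animals (24.2% of all genes in either direction). ELL3 was higher by 1.74 ± 0.31 and TCEA3 by 1.31 ± 0.46, while TCEA2 was at −1.08 and SNAPC4 at −0.86. On the left at 1 h CCNT1 was higher by 1.18, and on the right at 1 h by 0.85, where RDBP, a subunit of the pausing factor NELF, was at −1.67. On the right at 6 h ELL3 (1.28) and CTDP1 (0.57), the phosphatase of the polymerase II tail, were higher and SNAPC2 (−0.72) lower. Comparisons that share a placebo group are not independent of each other, which holds for the time and the treatment differences of every gene named here.

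Cell type markers moved over time in placebo animals as well. Of 11 neuron markers 11 were higher at 6 h on either side in the ratio, with medians of 2.12 on the right and 2.41 on the left, while their summed Cy5 signal on the left was 152995 to 156732 at 1 h and 137813 to 147299 at 6 h. Of 6 blood cell markers 2 were lower on either side, and the summed Cy5 signal on the left was 79452 to 100416 at 1 h and 6043 to 21293 at 6 h. Of the 5 measured markers of meninges and choroid plexus 4 were lower on either side in the ratio. Their left sums, in contrast, were 1667 to 8032 at 1 h and 6877 to 14895 at 6 h. On placebo left 1 h arrays as few as 2 of these 5 and 1 of the 6 blood cell markers were above background. Of 8 oligodendrocyte markers 4 were higher on the right and 7 on the left (medians of 1.39 and 1.92), while their left sums were 68519 to 134537 at 1 h and 32163 to 51562 at 6 h. Of 7 astrocyte markers 2 were higher on the right and 3 on the left in the ratio. Their left sums, in contrast, were 99806 to 119905 at 1 h and 15883 to 64654 at 6 h. Of 8 microglia and macrophage markers 4 were lower on the right and 0 on the left, and of 8 endothelial and mural markers 1 was lower on either side. The part of these markers in the member differences was not tested.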

How the data were processed

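RNA from 24 cortical biopsies was hybridised in Cy5 to 2-colour Agilent arrays against 1 common reference in Cy3, with no dye swap. The deposited scanner files hold raw spot intensities, background-subtracted and dye-normalized intensities, and their log10 ratio of Cy5 over Cy3, per the file headers. The headers name scanner software 9.5.3.1, 10.5.1.1 and 10.7.3.1 (the submitters' processing notes name the last). The series matrix holds the authors' log10 ratios, within 0.005 of the scanner values, with Cy5 over Cy3 as their direction. Here mean intensities were corrected by normexp (offset 50) and loess-normalized within arrays, control spots at weight 0. A probe was kept if the scanner marked its Cy5 signal as well above background on all 3 arrays of some group, and the brightest probe stood for a gene. All 24 arrays were fitted with 1 mean per group in limma 3.58.1 (R 4.3.3), giving 15 comparisons, with Benjamini-Hochberg adjustment over all genes and a threshold of 0.05. The code was tested on simulated data. Members and gene lists were chosen with earlier results of these data known. Named are members that passed (up to 10 per direction), the 4 largest differences per comparison, preset core subunits, the 3 highest and lowest levels, and members with discordant probes. 1 member stays in the counts and medians, but is not reported here by name or drawn. Right and left arrays of 1 number, treatment and time were read as 1 animal, per the labels. The deviations of the 12 right-left pairs from their group means correlated at −0.71 to 0.69. Probes were designed on the rhesus build rheMac2 and the RNA was cynomolgus, so a mismatch can lower a signal. The number of arrays, 3 per group, limits the precision.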

Additional observations from a re-analysis of the deposited data

How the results depend on the processing

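Across 12 other settings and the repeats that each left out 1 array, 1172 values of named genes were recomputed, of which 919 kept direction and side of the threshold, 187 kept direction but no longer passed, 7 newly passed and 59 changed sign. The counts of 0 members in the right-left comparisons, in treatment by side and over time in TatNR2B9c animals held in every one of the 12 settings run. With the animal as a replicate block, the counts were 0 in these, 1, 1, 0 and 12 for treatment (right 1 h, right 6 h, left 1 h, left 6 h) and 9 and 14 over time in placebo right and left cortex, as without it, and no named gene changed call (67 of 67). Leaving out 1 array gave 11 to 15 members over time in placebo left and 8 to 12 in placebo right cortex, 0 to 2 in TatNR2B9c left (2 without left 6 h array 3) and 0 to 0 in TatNR2B9c right. For treatment it gave 4 to 17 on the left at 6 h, 0 to 0 on the left at 1 h, 0 to 1 on the right at 1 h and 0 to 2 on the right at 6 h, and for the right-left comparisons 0 to 0.

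Median centring in place of loess shifted the median of all genes to −0.88 and −0.79 over time in placebo left and right, −0.36 and −0.47 in TatNR2B9c left and right, −0.97 and −0.77 for treatment at 1 h (left, right) and −0.55 and −0.47 at 6 h. Members passing under it numbered 45 (5 higher, 40 lower) and 51 (7 and 44) for treatment at 1 h on the right and left, and 48 (10 and 38) and 49 (10 and 39) over time in placebo right and left. The processed signals, and likewise the series matrix, gave 5 (all lower) and 8 (all lower) for treatment at 1 h on the right and left, 0 at 6 h on either side, and 0 and 9 (2 higher, 7 lower) over time in placebo right and left. Ratios scaled to equal spread gave 0 for treatment on the right at 1 h and on both sides at 6 h, and 1 and 4 over time. Cy5 alone gave 7 (2 higher, 5 lower), 6 (3 and 3) and 9 (2 and 7) for treatment right 1 h, right 6 h and left 1 h, and 15 (6 and 9) and 8 (3 and 5) over time. Fitting the compared groups alone gave 0 for treatment right 1 h and left 6 h. Scan day as a random block, and leaving out the 3 arrays weak in Cy3, each gave 0 for treatment right 1 h, and the latter 6 over time in placebo left. The cause of these changes was not tested.

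Signs changed as follows in Cy5 alone. Over time in placebo left cortex GTF3A was −0.20, TAF1C −0.50 and TAF6 −0.84, and in right cortex TAF1C was −0.50. For treatment on the left at 1 h GTF3A was −0.60, GTF2A1 −0.92, TAF9L −0.90 and GTF2F2 −0.61, and at 6 h GTF3C4 −0.93, POLR3A 0.22 and TAF1C 0.18. On the right at 1 h TAF10 was 0.26, TAF6L 0.32, GTF2B −0.77 and GTF2H2 0.12, and at 6 h GTF3C4 −0.71. For right minus left in placebo at 1 h GTF2A1 was −0.87, GTF3A −0.17, TAF9L −0.010 and TAF10 −0.13, and at 6 h POLR2J2 0.029 and GTF2H2 0.46. Both values of GTF2A1 involve a group with no Cy5 signal well above background.

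Under median centring, over time in placebo left, GTF3A was −3.01, TAF15 −2.07, GTF3C1 −0.42, TAF6 −2.68 and POLR2E −3.19, and in placebo right GTF3C1 was −0.020 and POLR2E −2.55. In TatNR2B9c right TAF15 was −0.33, POLR2I −0.66, TAF10 −0.69 and TAF6L −0.32. For treatment on the left GTF3A was −3.33, TAF9L −1.53 and GTF2F2 −1.22 at 1 h and GTF3C3 −0.013 at 6 h. On the right GTF2B was −2.04 at 1 h and POLR2F −0.57 and POLR2I −0.67 at 6 h, and TAF10 was −0.14 for right minus left in placebo at 1 h. With equal spread GTF2A2 was 0.11 over time in placebo left, POLR1D 0.49 over time in TatNR2B9c left and TAF10 0.49 for right minus left in TatNR2B9c at 1 h.

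In the series matrix and the processed signals respectively, POLR1A was −0.23 and −0.22 and POLR2D −0.25 and −0.24 over time in placebo left, GTF3C1 −0.22 and −0.22 and POLR3A −0.54 and −0.54 in placebo right, and TAF9L −0.32 and −0.31 and GTF2F2 −1.56 and −1.57 for treatment on the left at 1 h. With 1 array left out in turn, TAF9L ranged from −0.049 to 1.26 and GTF2F2 from −0.22 to 1.18 for that treatment comparison, and TAF9L from −0.019 to 1.29 for right minus left in placebo at 1 h. The lowest value of each was that without placebo left 1 h array 3.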
